A study of Mus musculus with 32 samples.

Results

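Gcg, Sostdc1, Id3, Cd200r1 and Myo6 are 5 genes of the 16741 measured in donor T cells of a mouse transplantation series on graft-versus-host disease. They were chosen by symbol from an earlier look at these same data: the measured values that selected them were the differences in normalised count between T cells from allogeneic recipients treated with regulatory T cells (Treg) and T cells from untreated allogeneic recipients. That difference is therefore given below as a description, with its standard error (SE) and no test. Comparisons of the 5 genes are tested only where they use no CD4 or CD8 cells of those recipients. The model still takes its estimate of spread from all libraries.

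Donor cells came from C57Bl6 mice and were given to Balb/c recipients, a pairing that differs at the major histocompatibility genes. Cells labelled CD4, CD8 or Treg were sorted from spleen and lymph nodes, and each of 31 libraries is a bulk RNA measurement of one sorted sample. CD4 and CD8 cells each had 2 pretransplant libraries (day 0), 3 libraries of syngeneic hosts, 4 of untreated allogeneic hosts and 4 of allogeneic hosts given donor Treg at the time of transplantation (called Treg-treated). Treg had 2 libraries at day 0 and 3 from Treg-treated hosts. Per the titles the post-transplant cells are of day 6, though the design text names a later day. The strain of the syngeneic recipients, the Treg dose and the markers used for sorting are not given in the sources used here. Library names carry a prefix, JL019 or JL027, whose meaning the labels do not give. Nothing in the labels says that libraries of a group came from separate animals, so p-values measure the spread between libraries, which may be partly technical.

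The 5 genes act at different places in a cell. Gcg encodes proglucagon, the precursor from which pancreatic alpha cells cut glucagon and intestinal L cells cut glucagon-like peptides, and it is a hormone gene that T cells are not known for. Sostdc1 encodes a secreted antagonist of bone morphogenetic protein (BMP) ligands that also binds Wnt co-receptors of the LRP family. Cd200r1 encodes the inhibitory receptor for the membrane glycoprotein CD200. Id3 encodes a helix-loop-helix protein without a DNA-binding region, which pairs with E proteins such as those encoded by Tcf3 and Tcf12 and keeps them from their E-box sites. In T cells Id3 is known as a marker of naive and memory-like states. Myo6 encodes myosin VI, the motor that walks toward the minus end of actin filaments and carries endosomal cargo through adaptors such as optineurin.

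On GRCm38, Gcg (ENSMUSG00000000394) lies at chr2:62474530-62483653, Sostdc1 (ENSMUSG00000036169) at chr12:36314169-36318452 and Id3 (ENSMUSG00000007872) at chr4:136143822-136145392. Cd200r1 (ENSMUSG00000022667) lies at chr16:44765736-44794977 and Myo6 (ENSMUSG00000033577) at chr9:80164976-80311729. Promoters of 3 of the 5 genes were found in the RefSeq table (GRCm38.p6), those of Gcg, Id3 and Myo6. The 250 bases before the start are shown for Gcg, whose change was seen in CD4 cells, and for Id3, whose change was seen in CD4 and in CD8 cells. Capitals mark E-boxes (CANNTG) and TATA boxes (TATAAA, on either strand). The Gcg window is chr2:62483654-62483903, minus strand, and the Id3 window is chr4:136143572-136143821, plus strand.
Gcg: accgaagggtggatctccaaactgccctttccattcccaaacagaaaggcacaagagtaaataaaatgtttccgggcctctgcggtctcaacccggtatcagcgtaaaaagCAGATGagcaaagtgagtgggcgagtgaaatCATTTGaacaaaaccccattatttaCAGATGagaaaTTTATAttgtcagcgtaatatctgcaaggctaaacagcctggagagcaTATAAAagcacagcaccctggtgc
Id3: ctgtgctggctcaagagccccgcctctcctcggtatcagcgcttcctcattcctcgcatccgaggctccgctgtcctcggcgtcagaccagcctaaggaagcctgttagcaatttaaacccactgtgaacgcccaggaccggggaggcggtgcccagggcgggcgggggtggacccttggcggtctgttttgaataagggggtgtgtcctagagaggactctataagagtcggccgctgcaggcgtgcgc
The Gcg window held 3 E-boxes, with first bases at -139, -108 and -83 from the start, and 2 TATA boxes, at -72 on the reverse strand and at -24. Of 27025 mouse promoter windows of the same 250 bases, 66.0% held an E-box, and 3504 of them a TATA box. The Gcg window also held 2 matches of GGAAA, the core bound by NFAT factors, which 55.6% of windows hold. Neither the Id3 nor the Myo6 window held any of the 5 sequences searched, which besides these were GCGNGGGCG (4.65% of windows) and GGCGCC (9.54%), on both strands. These matches describe letters and say nothing about binding in these cells.

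Values below are normalised counts, that is, read counts that the authors scaled between libraries, and the log2 scale is log2(normalised count + 1). RNA depth is unknown, since the deposited values are scaled. The labels were compared with lineage genes. One library stood apart: CD4 syngeneic JL019-2 had a Cd4 value of 1659 against 14577 and 16526 in the other CD4 syngeneic libraries, and a Cd8a value of 1956. Its summed myeloid markers (13 genes) reached 3723170, against at most 99575 in any library of another group. Results that rest on it are given with and without it. Foxp3, which defines Treg, went against the label at day 0: it lay at 198 to 442 in the libraries labelled Treg and at 978 to 1145 in CD4 day 0 libraries. The sum of 12 Treg markers went with the label, at 102591 to 106344 against 20177 to 22252.

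**Figure D1:**
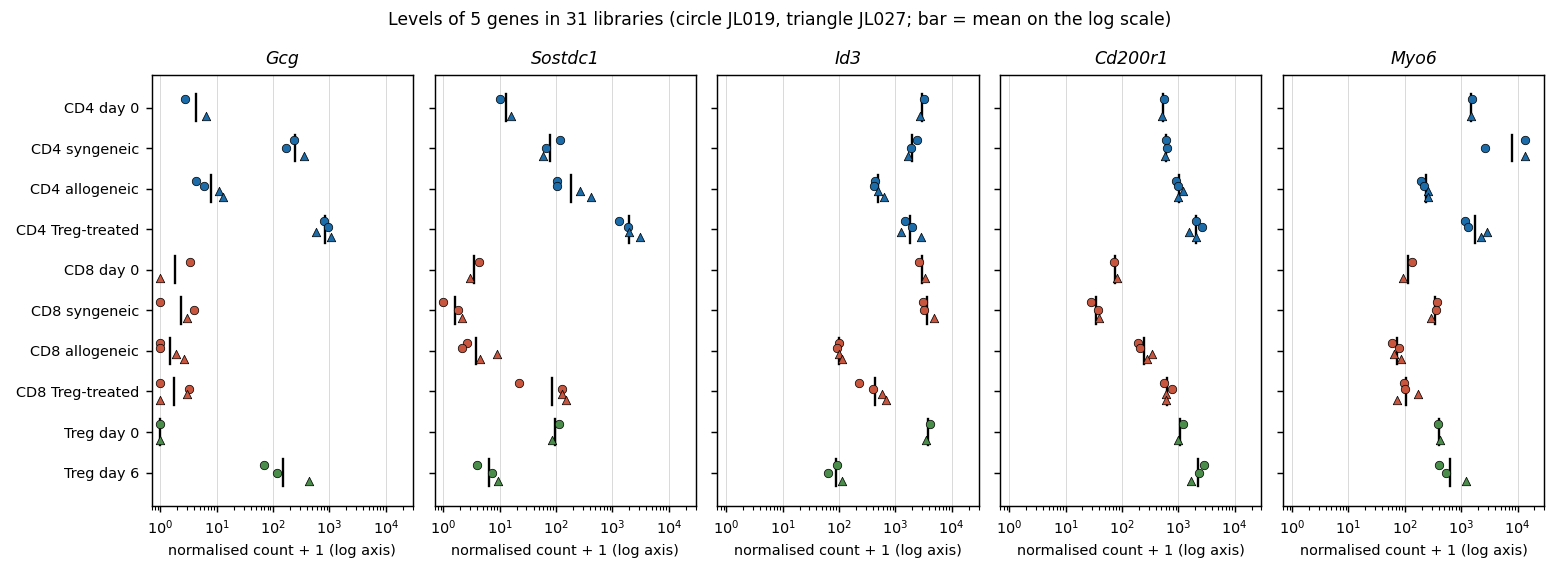
Normalised count + 1 (log axis) of Gcg, Sostdc1, Id3, Cd200r1 and Myo6 in each of 31 libraries, by group, with the mean on the log scale as a bar. In CD4 cells the Treg-treated libraries lay above every allogeneic library for all 5 genes, whereas in CD8 cells Gcg stayed between 0 and 2.94 throughout.

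Among effector cells Gcg was found above trace levels in CD4 cells. In CD4 allogeneic libraries its value was 3.29, 5.03, 10.2 and 11.8, and in CD4 Treg-treated libraries 802, 945, 573 and 1050. The groups did not overlap, and the mean was 7.58 ± 4.06 (SD, n = 4) against 843 ± 207 (SD, n = 4). The difference was 6.72 on the log2 scale (SE 0.596), the second highest of all 16741 genes in that comparison. It was 7.42 within the JL019 libraries and 6.02 within JL027. In CD4 day 0 libraries Gcg was 1.76 and 5.49, within or below the allogeneic range. The CD4 syngeneic libraries had 236, 167 and 350, above every allogeneic library and below every Treg-treated one. In these mixed bulk samples, more cells that hold a transcript and more transcript per cell cannot be told apart.

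In CD8 cells Gcg was listed at 0 to 2.34 at day 0, 0 to 2.94 in syngeneic, 0 to 1.61 in allogeneic and 0 to 2.26 in Treg-treated libraries. All 4 CD8 groups overlapped, and no fold is given between them. Both libraries labelled Treg at day 0 were listed at 0, whereas those of day 6 had 68.8, 115 and 436. The 3 groups with Gcg above every CD4 allogeneic library were thus CD4 Treg-treated, CD4 syngeneic and Treg day 6.

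Myo6 showed the second CD4 pattern. It lay at 196, 221, 261 and 261 in CD4 allogeneic libraries and at 1168, 1331, 2932 and 2260 in CD4 Treg-treated ones. The groups did not overlap, and the difference was 2.94 on the log2 scale (SE 0.396; 2.58 within JL019 and 3.30 within JL027). At day 0 CD4 cells held 1537 and 1509, which lies within the Treg-treated range, so the allogeneic libraries were the low ones. CD4 syngeneic libraries reached 13504, 2645 and 13531, and the lowest of these is the library with few Cd4 counts.

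In CD8 cells Myo6 was lower in every condition. Allogeneic libraries had 58.4, 78.2, 64.0 and 85.5 and Treg-treated libraries 95.3, 99.0, 171 and 71.0. These overlapped, with a difference of 0.54 on the log2 scale (SE 0.396). CD8 day 0 libraries had 134 and 93.4, and syngeneic libraries 376, 355 and 292, above all other CD8 libraries.

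Sostdc1 was higher in Treg-treated than in allogeneic libraries of both effector types, at different levels. CD4 allogeneic libraries had 104, 104, 263 and 423, and CD4 Treg-treated libraries 1304, 1932, 1949 and 3083. The difference was 3.40 on the log2 scale (SE 0.554), 3.92 within JL019 and 2.87 within JL027. CD8 allogeneic libraries had 1.65, 1.14, 7.84 and 3.43, close to the bottom of the scale, and CD8 Treg-treated libraries 21.1, 125, 128 and 152. This difference was 4.48 (SE 0.554) and ranked 3 of 16741 genes in CD8 cells, against 18 in CD4 cells. The lowest of the CD8 Treg-treated libraries, JL019-1, lay well below the other 3, and without it the difference was 5.13. Neither pair of groups overlapped. The CD8 Treg-treated range overlapped the CD4 allogeneic range.

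For Sostdc1 the resting and syngeneic levels lay well below those of Treg-treated cells. CD4 day 0 libraries had 9.34 and 15.0, and CD4 syngeneic libraries 118, 65.0 and 57.7. CD8 day 0 libraries had 3.29 and 1.93, and CD8 syngeneic libraries 0, 0.838 and 1.17. Libraries labelled Treg had 113 and 82.6 at day 0 and 2.91, 6.34 and 8.32 at day 6. The Treg recovered from the recipients therefore held less Sostdc1 than any CD4 library from the same Treg-treated recipients.

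Cd200r1 had the smallest log2 differences of the 5 genes in CD4 cells, in a narrow spread. CD4 allogeneic libraries had 918, 974, 1234 and 994 and CD4 Treg-treated libraries 2056, 2599, 1538 and 2057, a difference of 0.99 on the log2 scale (SE 0.201; 1.29 within JL019 and 0.68 within JL027). CD8 allogeneic libraries had 193, 213, 338 and 284 and CD8 Treg-treated libraries 551, 783, 605 and 596, a difference of 1.32 (SE 0.201). Neither pair of groups overlapped. CD4 day 0 cells had 553 and 520, and CD4 syngeneic cells 599, 644 and 574. CD8 day 0 cells had 72.9 and 79.4, and CD8 syngeneic cells 27.8, 36.5 and 38.5, the lowest of all 10 groups. Libraries labelled Treg had 1197 and 975 at day 0 and 2895, 2345 and 1709 at day 6, a range that overlaps that of CD4 Treg-treated cells.

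Id3 was high before transplantation and low in allogeneic cells. CD4 day 0 libraries had 3287 and 2775, CD4 allogeneic libraries 443, 422, 500 and 620, and CD4 Treg-treated libraries 1482, 2004, 1259 and 2905. The Treg-treated minus allogeneic difference was 1.89 on the log2 scale (SE 0.279; 1.99 within JL019 and 1.78 within JL027). CD8 day 0 libraries had 2607 and 3320, CD8 allogeneic libraries 99.0, 92.8, 98.4 and 113, and CD8 Treg-treated libraries 223, 410, 587 and 687. That difference was 2.11 (SE 0.279). Neither pair overlapped. In CD4 cells the Treg-treated range overlapped the syngeneic one (2440, 1914 and 1677), whereas in CD8 cells every Treg-treated library lay below every syngeneic library (3130, 3273 and 4945). Libraries labelled Treg had 4065 and 3509 at day 0 and 91.8, 63.7 and 114 at day 6, so the recovered Treg overlapped CD8 allogeneic cells at the bottom of the order.

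**Figure D2:**
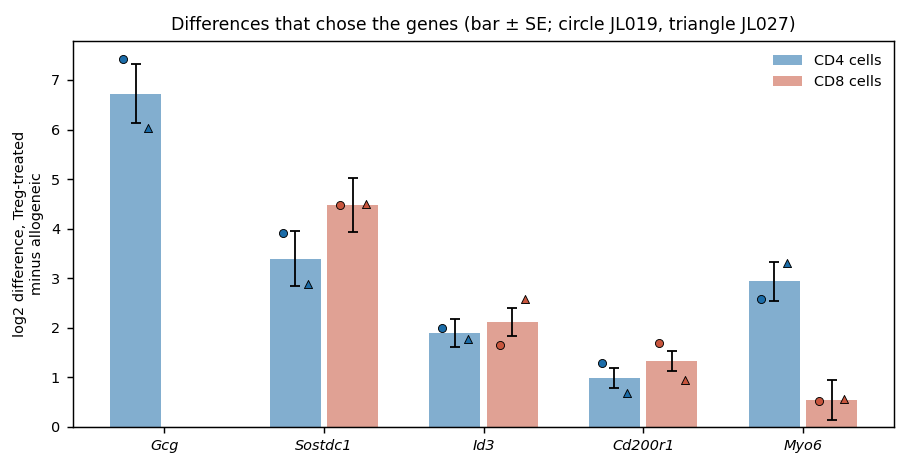
Log2 difference of Treg-treated minus allogeneic libraries for the 5 genes in CD4 and CD8 cells, as bars with their SE; points are the differences within JL019 (circles) and JL027 (triangles). These differences selected the genes. Sostdc1, Id3 and Cd200r1 were higher in both cell types and Myo6 mainly in CD4 cells; no bar is drawn for Gcg in CD8 cells, where values were 0 to 2.26.

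Set against the reference groups, the 5 genes fell into distinct patterns. In CD4 cells every Treg-treated library lay above every syngeneic library for Gcg, Sostdc1 and Cd200r1. For Id3 and Myo6 the Treg-treated libraries overlapped both the day 0 and the syngeneic ones. For Myo6 the overlap with syngeneic cells came through JL019-2 (2645) alone. All 5 genes had CD4 Treg-treated libraries that did not overlap the allogeneic ones, a rule that 12% of all genes met in this direction. In CD8 cells 3 of the 5 did (Sostdc1, Id3 and Cd200r1), against 2.58% of all genes. Because this contrast chose the genes, nothing is read from those shares.

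Lineage genes and markers of other cell types moved with the same contrast. Cd4 itself was 16706 to 21481 in CD4 allogeneic libraries and 9108, 8722, 17587 and 9370 in CD4 Treg-treated ones, where JL027-1 stood apart as the third value. Cd3d was 17913 to 23324 and 21930 to 50822 and Cd3g 24334 to 33735 and 35394 to 76375, with JL027-1 again nearest to the allogeneic libraries, whereas Cd3e was 19393 to 21364 and 16600 to 25572. In CD4 cells the summed myeloid markers ran from 9202 to 16351 in allogeneic and from 28561 to 99575 in Treg-treated libraries, with S100a8 at 4107 ± 1333 against 23848 ± 14475 (SD, n = 4 each) and Itgam, another myeloid gene, lower in the Treg-treated libraries (468 ± 80.2 against 153 ± 102). Summed erythroid markers (9 genes) ran from 471 to 10836 and from 5531 to 62647. In CD8 cells the myeloid sums were 12363 to 18224 and 18844 to 46150. Cd8a was 14160 to 19947 in CD8 allogeneic and 22586 to 29769 in CD8 Treg-treated libraries. The B cell sums (9 genes) there were 1161 to 1271 and 1347 to 2105, and the gut and pancreas epithelial sums 75.0 to 90.8 and 33.7 to 63.2. Of 6 natural killer markers Ncr1 was called higher in CD4 cells (5.90 ± 3.11 against 30.3 ± 11.7, limma adjusted p = 0.0302) and in CD8 cells (5.06 ± 3.11 against 68.5 ± 27.9, adjusted p = 0.0448; SD, n = 4 each), and the other 5 were called in neither. Klrb1c, which encodes NK1.1, was lower in the Treg-treated libraries, at 143 ± 14.0 against 109 ± 33.6 in CD4 cells (adjusted p = 0.624) and 553 ± 147 against 178 ± 126 in CD8 cells (adjusted p = 0.207). The summed natural killer markers overlapped, at 527 to 624 and 435 to 1655 in CD4 cells and 1950 to 2521 and 1989 to 6449 in CD8 cells. Of 5 Th2 markers Il4 was called higher in CD4 cells (275 ± 70.1 against 1536 ± 487, adjusted p = 0.00241), while their sums, 8752 to 12036 and 8766 to 11623, overlapped. Myeloid sums were at least 84678 in every CD4 syngeneic library, with Gcg at 167 to 350. In CD8 syngeneic libraries they were 42991 to 67784, with Gcg at 0 to 2.94. The CD4 syngeneic library with the myeloid sum of 3723170 had the lowest Gcg and the lowest Myo6 of its group. Of 10 listed gut and pancreas epithelial markers 4 were in the table, and their sums were at most 133 in any library. Epcam, 1 of these, was at 0 in every CD4 Treg-treated library. It was also at 0 in every CD4 day 0, CD8 day 0 and CD8 syngeneic library. The sum of 12 Treg markers was 57896 to 72669 in CD4 allogeneic and 62910 to 155652 in CD4 Treg-treated libraries, whereas Foxp3 was 337 to 579 and 127 to 178. The sum of 6 follicular helper markers was 3956 to 6409 and 7328 to 9426. The part of these lineage genes in the differences of the 5 genes was not tested. Nor was that of cells with myeloid, erythroid, B cell, natural killer, epithelial, Th2, Treg or follicular helper markers.

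Most comparisons that did not choose the genes used day 0 and syngeneic cells, without alloreactivity. The exception, Treg day 6 against day 0, used Treg recovered from Treg-treated allogeneic hosts. In CD4 cells transferred into syngeneic recipients Gcg, Sostdc1 and Myo6 rose over day 0, and Id3 and Cd200r1 did not pass the test. The log2 rise was 5.83 for Gcg (SE 0.769, limma adjusted p = 2.84e-06), 2.36 for Myo6 (SE 0.511, adjusted p = 0.00193) and 2.59 for Sostdc1 (SE 0.715, adjusted p = 0.0154). The differences of Id3 and Cd200r1 were -0.60 (adjusted p = 0.291) and 0.17 (adjusted p = 0.703). That is 3 of 5 genes against 13% of all genes called in either direction. Without CD4 syngeneic JL019-2 the same 3 were called, with Gcg at 6.09, Sostdc1 at 2.70 and Myo6 at 3.15. The summed myeloid markers moved with this change, from 3372 to 4467 at day 0 to at least 84678 in every CD4 syngeneic library, with the erythroid sums going from 769 to 1501 up to 4921 to 469408 and the natural killer sums from 514 to 536 up to 651 to 30601. Gut and pancreas epithelial sums went from 32.3 to 32.9 up to 34.3 to 87.3. The part of these markers in the change was not tested. The Sostdc1 call was lost without either CD4 day 0 library (adjusted p = 0.168 and 0.0638) with a pseudocount of 0.1 (adjusted p = 0.0544) and with each library's log2 mean value as a covariate (adjusted p = 0.0543). With only these groups in the model Gcg alone was called (adjusted p = 0.12 for Sostdc1 and 0.26 for Myo6).

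In CD8 cells 2 of 5 genes were called between syngeneic and day 0 libraries, against 24.2% of all genes. Cd200r1 was lower by 1.14 log2 units (-1.14, SE 0.260, limma adjusted p = 0.00291) and Myo6 rose by 1.59 (SE 0.511, adjusted p = 0.0259). Gcg (0 to 2.34 at day 0 and 0 to 2.94 in syngeneic libraries, adjusted p = 0.779), Sostdc1 (-1.16, adjusted p = 0.23) and Id3 (0.33, adjusted p = 0.514) did not pass. The Cd200r1 call was lost after quantile normalisation (-0.46, adjusted p = 0.288) and with only these groups in the model (adjusted p = 0.119). The Myo6 call was lost without either CD8 day 0 library (adjusted p = 0.0946 and 0.134) or without CD8 syngeneic JL019-1 (adjusted p = 0.0687). Beside these changes the myeloid sums went from 8696 to 9997 up to 42991 to 67784, the B cell sums (9 genes) from 2114 to 2788 up to 3280 to 4078 and the erythroid sums from 32040 to 36283 down to 3351 to 11185. Natural killer sums (1091 to 1298, then 1487 to 2478), follicular helper sums (2556 to 3074, then 3553 to 6280) and Treg sums (5973 to 7744, then 7846 to 14486) also rose. Epithelial sums fell from 126 to 133 down to 34.1 to 88.6. The part of these markers was not tested.

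The cell types were compared in the syngeneic recipients. In CD8 against CD4 syngeneic cells 4 of 5 genes were lower, against 12% of all genes called. The differences were -4.11 for Cd200r1 (SE 0.232, limma adjusted p = 2.7e-12), -4.53 for Myo6 (SE 0.457, adjusted p = 6.28e-08), -5.61 for Sostdc1 (SE 0.639, adjusted p = 4.8e-07) and -6.72 for Gcg (SE 0.688, adjusted p = 8.01e-08). The sizes for Gcg and Sostdc1 rest on CD8 values near 0. That for Gcg was -8.11 with a pseudocount of 0.1, and that for Sostdc1 ran from -7.28 to -4.83 over the alternatives. Id3 was the exception at 0.90 (SE 0.322, adjusted p = 0.0686). All 4 calls held without CD4 syngeneic JL019-2, with Cd200r1 at -4.07, Myo6 at -5.31, Sostdc1 at -5.72 and Gcg at -6.98. Several marker sums separated the same groups: myeloid (42991 to 67784 in CD8 and at least 84678 in CD4 syngeneic libraries), Treg (7846 to 14486 and 20724 to 25992), B cell (3280 to 4078 and 279 to 1371) and follicular helper (3553 to 6280 and 1736 to 3147). The part of these markers in the differences was not tested. Before transplantation 2 of 5 genes differed between CD8 and CD4 cells, against 3.32% of all genes: Myo6 was lower by 3.75 in CD8 cells (-3.75, SE 0.560, adjusted p = 7.19e-05) and Cd200r1 by 2.80 (-2.80, SE 0.284, adjusted p = 2.67e-07). Gcg (-1.21, adjusted p = 0.698), Sostdc1 (-1.86, adjusted p = 0.294) and Id3 (-0.04, adjusted p = 0.993) were not called. CD8 and CD4 day 0 libraries also differed in their erythroid sums (32040 to 36283 against 769 to 1501), B cell sums (2114 to 2788 against 595 to 774) and myeloid sums (8696 to 9997 against 3372 to 4467). Natural killer sums (1091 to 1298 against 514 to 536) and epithelial sums (126 to 133 against 32.3 to 32.9) were higher in CD8 cells too. Treg sums (5973 to 7744 against 20177 to 22252) and Th2 sums (1014 to 1257 against 2417 to 2758) were lower. The part of these markers was not tested. The syngeneic change itself differed between CD8 and CD4 cells for Gcg, Sostdc1 and Cd200r1, 3 of 5 genes against 3.63% of all genes, by a test added after the values were seen. All 3 calls were lost with only these 4 groups in the model, those of Sostdc1 and Cd200r1 were each lost under 8 of 18 alternatives in all, and that of Gcg was also lost with a pseudocount of 0.1 (limma adjusted p = 0.216).

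**Figure D3:**
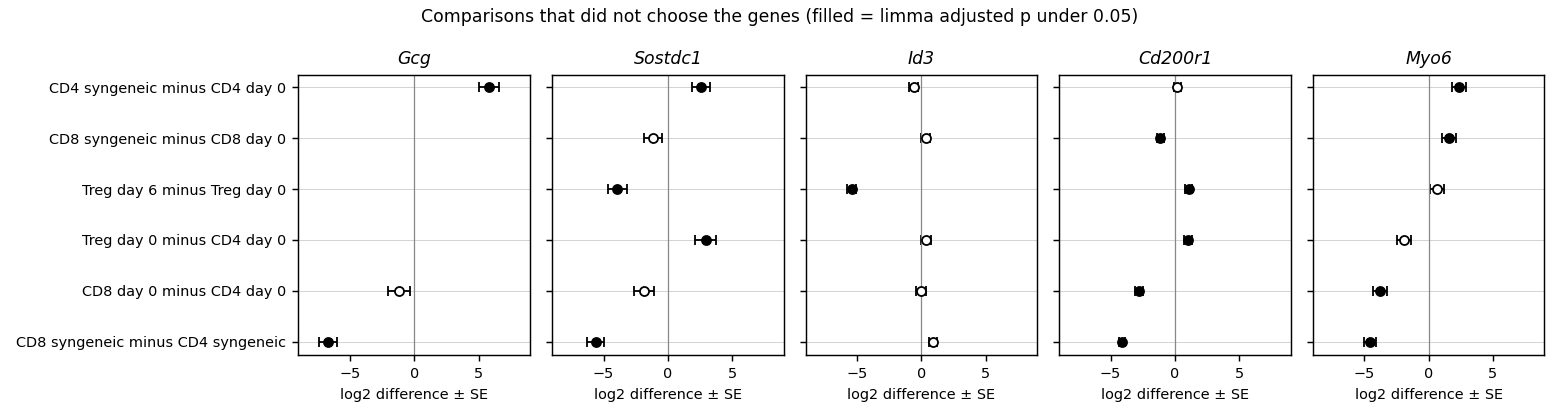
Log2 differences with SE of the 5 genes in the 6 comparisons that use no allogeneic or Treg-treated effector libraries; filled points have a limma adjusted p under 0.05. CD4 syngeneic cells lay above day 0 for Gcg, Sostdc1 and Myo6, and CD8 syngeneic cells below CD4 syngeneic cells for all but Id3; Gcg is not drawn where Treg day 0 enters, since both of those libraries were listed at 0, nor between CD8 groups, where values were 0 to 2.94.

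In the libraries labelled Treg the 5 genes moved apart after transfer. From day 0 to day 6, 4 of 5 were called against 13.3% of all genes. The log2 change was -3.92 for Sostdc1 (SE 0.715, limma adjusted p = 0.000276) and -5.42 for Id3 (adjusted p = 5.71e-11), whereas Cd200r1 rose by 1.07 (SE 0.260, adjusted p = 0.0053). Gcg was called higher (adjusted p = 1.25e-07), with no fold given because day 0 was listed at 0. Myo6 (0.66, adjusted p = 0.476) was not called, except with each library's log2 mean value as a covariate (1.44, adjusted p = 0.0134). It was 0.21 without Treg day 6 JL027. Its highest library, JL027 at 1195, also had the highest Gcg. The Cd200r1 call was lost without Treg day 0 JL027 (adjusted p = 0.0955). Treg marker sums were higher beside these changes, at most 106344 at day 0 and between 194732 and 275030 at day 6, and Foxp3 was 265 to 293. The summed erythroid markers were 132 to 460 at day 0 and 1713 to 50561 at day 6, and the myeloid sums 5509 to 5720 and 6750 to 11883. Th2 sums went from 4698 to 5027 up to 20273 to 23120, while natural killer sums (420 to 557, then 138 to 197), follicular helper sums (5491 to 5803, then 3007 to 3460) and B cell sums (1141 to 1333, then 616 to 914) went down. Epithelial sums were 40.2 to 67.2 and 72.9 to 111. The part of these markers in the changes was not tested.

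Between libraries labelled Treg and CD4 libraries at day 0, 2 of 5 genes were called, against 3.89% of all genes. Sostdc1 was higher by 2.92 in the Treg-labelled libraries (SE 0.783, limma adjusted p = 0.0301) and Cd200r1 by 1.01 (SE 0.284, adjusted p = 0.0413). Both calls were lost when any of the 4 libraries was left out, and that of Sostdc1 with a pseudocount of 0.1 (adjusted p = 0.105). The erythroid sums were 132 to 460 in the Treg-labelled and 769 to 1501 in the CD4 libraries, and the myeloid sums 5509 to 5720 and 3372 to 4467. Follicular helper sums (5491 to 5803 against 2729 to 2957), Th2 sums (4698 to 5027 against 2417 to 2758) and B cell sums (1141 to 1333 against 595 to 774) were higher in the Treg-labelled libraries. So were epithelial sums (40.2 to 67.2 against 32.3 to 32.9). The part of these markers in the differences was not tested. Myo6 (-1.91, SE 0.560) missed the threshold at an adjusted p of 0.0521 and passed it under 6 of 12 alternatives (lowest adjusted p = 0.000294, with only these groups in the model; highest 0.278, with 1 library left out). Gcg (listed at 0 in the Treg-labelled libraries, adjusted p = 0.211) and Id3 (0.32, adjusted p = 0.743) were not called.

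The partners of the 5 genes were described by 6 lists of pathway genes in Treg-treated minus allogeneic cells. Of 122 listed genes 89 were in the table. In CD4 cells 3 of these were called higher and 19 lower, 24.7% against 22.2% of all genes (1785 higher and 1925 lower), with a median difference of -0.21 on the log2 scale against -0.00 over all genes. In CD8 cells none of the 89 was called, and over all genes 0.0657% were. The median there was -0.23 against -0.01. The share called among the listed genes lay near the background in both cell types.

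Around proglucagon 10 of 31 listed genes were in the table and none was called in CD4 cells. Pcsk1, the convertase that releases glucagon-like peptides, was at 10.8 ± 7.69 in allogeneic and 37.1 ± 26.7 in Treg-treated CD4 cells (SD, n = 4 each, limma adjusted p = 0.134). Pcsk2, the convertase that releases glucagon, was at 24.0 ± 7.55 and 20.3 ± 2.17 (adjusted p = 0.776). Dpp4, the surface peptidase that inactivates glucagon-like peptides and is known on T cells as CD26, was at 7649 ± 431 and 5286 ± 1565 (adjusted p = 0.0921). The receptor gene Glp1r was at 22.7 ± 11.0 and 13.0 ± 13.4 (adjusted p = 0.157).

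Of 24 BMP and Wnt genes around Sostdc1, 6 fell in CD4 cells and none rose, a share called of 25%, near the 22.2% of all genes. Axin1, a scaffold of the complex that degrades beta-catenin, fell by 1.87 on the log2 scale (-1.87, limma adjusted p = 0.0157), Smad4, the common mediator of BMP signals, by 1.18 (-1.18, adjusted p = 0.0175) and Smad5, a BMP-specific mediator, by 0.73 (-0.73, adjusted p = 0.0188). The other 3 were Lrp5, Ctnnb1 and Lef1. Lrp4, the co-receptor that binds Sostdc1, was at 17.6 ± 6.89 and 15.8 ± 6.47 (SD, n = 4 each, adjusted p = 0.866), and Lrp6 at 407 ± 54.2 and 320 ± 92.6 (adjusted p = 0.195). Bmp2 and Bmp4 were not in the table.

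Of 14 Id, E-protein and Egr genes, 2 fell in CD4 cells and none rose, 14.3% against 22.2% of all genes. Tcf3, which encodes the E proteins E12 and E47 that Id3 binds, fell by 1.54 on the log2 scale (-1.54, limma adjusted p = 0.0125), from 2901 ± 712 to 1006 ± 342 (SD, n = 4 each). Bhlhe40, a helix-loop-helix repressor of activated T cells, fell by 1.07 (-1.07, adjusted p = 0.0263). Tcf12 was at 1860 ± 72.5 and 1362 ± 361 (adjusted p = 0.112), Tcf4 at 183 ± 41.6 and 181 ± 29.1 (adjusted p = 0.997) and Id2, the paralogue of Id3, at 30010 ± 3479 and 37751 ± 8171 (adjusted p = 0.341).

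Of 11 genes of the CD200 system, 1 rose in CD4 cells, 9.09% against 22.2% of all genes. Cd200r3, an activating-type relative of Cd200r1, went from a mean of 40.3 to one of 180 (n = 4 each), a difference of 1.98 on the log2 scale (limma adjusted p = 0.00728). The ligand Cd200 was at 1853 ± 332 and 2909 ± 715 (adjusted p = 0.0908). Dok2, the adaptor that transmits the inhibitory signal of Cd200r1, was at 10377 ± 1078 and 10464 ± 2931 (adjusted p = 0.947), and Cd200r4 at 645 ± 81.0 and 741 ± 84.2 (adjusted p = 0.522). Reads can be shared between Cd200r1 and its close relatives, so the split between them is uncertain.

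Among 11 myosin VI partners 4 fell in CD4 cells and none rose (36.4% called), and among 19 other myosin genes 7 fell and 2 rose (47.4% called), where 22.2% of all genes were called. With each library's log2 mean value as a covariate, 2 genes of all 6 lists were called. Of the partners, the 3 with the lowest p were Synj1, an endocytic phosphatase (-1.04, limma adjusted p = 0.0212), Tom1l2, an endosomal adaptor (-1.18, adjusted p = 0.0274), and Calcoco1 (-1.06, adjusted p = 0.0286). The partner Clic5 was also called lower. Optn, which encodes optineurin, was at 559 ± 52.1 and 537 ± 76.2 (SD, n = 4 each, adjusted p = 0.907), Tax1bp1 at 8454 ± 575 and 9970 ± 2047 (adjusted p = 0.504) and Dab2 at 10.1 ± 6.62 and 9.53 ± 6.63 (adjusted p = 0.894). Of the other myosins, the log2 change was -1.84 for Myo1f (adjusted p = 0.00943), -1.39 for Myo1c (adjusted p = 0.0119) and -2.28 for Myo9b (adjusted p = 0.0157). Myo1g, Myh9, Myo18a and Myo5a were also called lower. The light chains Myl6 (0.94, adjusted p = 0.0294) and Myl12a (0.61, adjusted p = 0.0339) rose.

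Gene length moved with this contrast. Over 15855 genes with a known span, ranked by span into 4 equal groups, the group of shortest spans, which holds Id3 (1571 bases) and Sostdc1 (4284 bases), had a median CD4 difference of 0.39 on the log2 scale, and the group of longest spans, which holds Myo6 (146754 bases), had -0.25. The groups of Gcg and Cd200r1 had medians of 0.05 and -0.15. The part of length in the differences of the 5 genes was not tested. With the log2 mean value of each library as a covariate 2 of the pathway genes in CD4 cells were called, and leaving out 1 library gave 3 to 33. The count fell to 8 or fewer without CD4 allogeneic JL019-1 or JL019-2 or without CD4 Treg-treated JL019-1, JL019-2 or JL027-2, and was 33 without CD4 Treg-treated JL027-1.

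**Figure D4:**
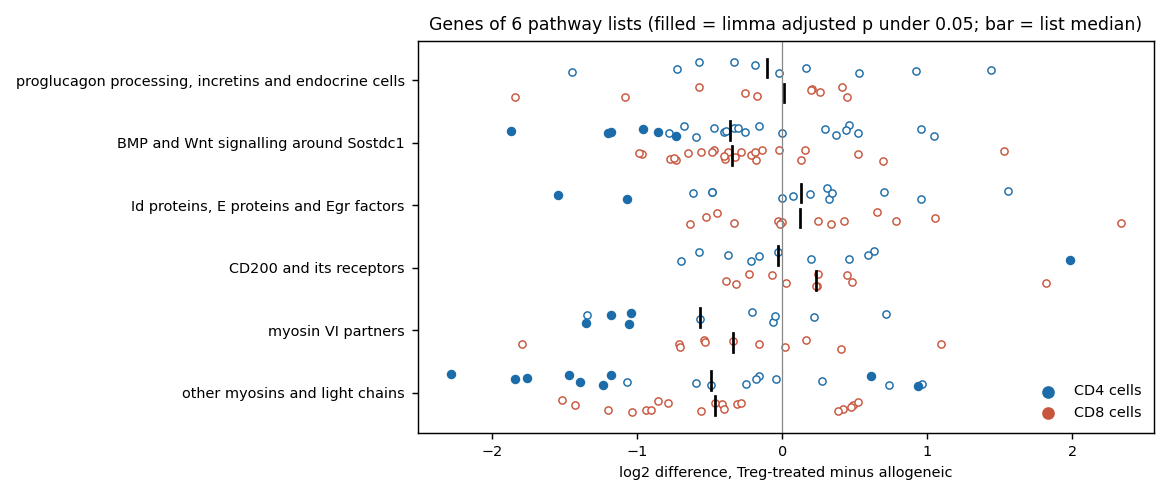
Log2 difference of Treg-treated minus allogeneic cells for 89 genes of the 6 pathway lists, in CD4 (blue) and CD8 (red) cells, with the list median as a bar; filled points have a limma adjusted p under 0.05. Filled points lie mostly to the left, with Cd200r3, Myl6 and Myl12a to the right, and no CD8 point is filled.

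The genes whose log2 values were most like each of the 5 over the 31 libraries differed between the 5. Such likeness partly reflects group and library structure shared by all genes, and no test is given. The ranks hold only among the genes kept for the search, since some gene classes were left out beforehand. Gcg was closest to Il18bp (Pearson r = 0.85), Isg20 (0.84) and Ifi27l2a (0.80), all known as interferon-induced genes. Il18bp, for instance, had group means of 486 in CD4 syngeneic, 178 in CD4 allogeneic, 582 in CD4 Treg-treated and 591 in Treg day 6 libraries. Sostdc1 was closest to Synpo (0.87), Chn2 (0.86) and Il21 (0.85), the cytokine of helper cells, whose mean was 691 in CD4 allogeneic and 1628 in CD4 Treg-treated libraries. Id3 was closest to Nsg2 (0.90), Capn3 (0.88) and Bambi-ps1 (0.88). Cd200r1 was closest to Penk (0.95), Tnfrsf4 (0.95) and Maf (0.94), and Penk, the enkephalin precursor, had its highest group mean, 15070, in Treg day 6 libraries. Myo6 was closest to Tesc (0.87), Pdlim4 (0.86) and Ly6c1 (0.82). Among the 5 themselves the highest r was between Gcg and Myo6 (0.77) and the lowest between Id3 and Cd200r1 (-0.29).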

How the data were processed

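The 5 genes and the pathway and marker lists were chosen with earlier results of these data known. RNA of 31 libraries was measured after full-length cDNA synthesis (SMARTer v4, Nextera XT), per the labels' protocols. The submitters' processing notes name FastQC 0.11.7, kallisto and DESeq2, with the builds GRCm38 and mm10. The deposited table holds a signal, counts that the authors scaled between libraries, per the file headers; the values are not whole, so reads were not recovered. Its base mean is a signal too. The authors' other columns (a log2 fold change with its SE, a score from their test, a p-value with its adjusted form) do not say which groups they compare; they are not used here. T-cell receptor tables were not used here.

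Values were tested as log2(value + 1) with limma 3.58.1 in R 4.3.3: a group-means model over all 31 libraries, moderated variances (trend and robust options), Benjamini-Hochberg adjustment over 16741 genes, threshold 0.05. A minimum mean of 1 removed 0 genes. Log2 differences understate changes of genes with low values. The plan named limma for normalised values. The code was tested on simulated data. One test, the difference of the syngeneic change between CD8 and CD4 cells, was added after values were seen. Alternatives were a pseudocount of 0.1, a minimum mean of 10 or none, quantile normalisation, a replicate block by label prefix or by recipient, a model of the compared groups alone, each library's log2 mean as a covariate, and leaving out each library.

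Named genes were the 5 members, fixed direct partners, at most 3 called genes per list and direction with the lowest p, further called list genes by name only, and per member the 3 genes of highest Pearson r over 31 libraries among those with a mean of at least 10. Marker genes, spans and flanking genes were named outside this rule after their values were seen. The ranking by Pearson r also left out some gene classes. These were genes with provisional names (such as Gm or Rik), antigen receptor segments of T and B cells, ribosomal-protein genes and mitochondrially encoded genes. Python 3.11.15, numpy 2.4.6, pandas 2.3.3 and matplotlib 3.10.9 were used for tables and figures. Gene positions came from RefSeq (GRCm38.p6).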

Additional observations from a re-analysis of the deposited data

Results flagged for a closer look

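The change from day 0 to the syngeneic recipients differed between CD8 and CD4 cells for 3 of the 5 genes, by a test of the difference itself that was added after the values were seen and that called 3.63% of all genes. The CD8 change minus the CD4 change was -5.51 on the log2 scale for Gcg (SE 1.09, limma adjusted p = 0.00361), -3.75 for Sostdc1 (SE 1.01, adjusted p = 0.0339) and -1.31 for Cd200r1 (SE 0.367, adjusted p = 0.0419). For Id3 it was 0.94 (adjusted p = 0.393) and for Myo6 -0.77 (adjusted p = 0.666). Gcg went from 1.76 and 5.49 to 167 and above in CD4 cells and stayed at 0 to 2.94 in CD8 cells, so the size of its difference rests on values near 0. The same holds for Sostdc1, at 1.93 and 3.29 in CD8 day 0 and 0 to 1.17 in CD8 syngeneic libraries. Its difference ran from -5.09 to -2.80 over the alternatives. Without CD4 syngeneic JL019-2, the library with few Cd4 counts, the difference was -5.77 for Gcg (adjusted p = 0.00349) and -3.86 for Sostdc1 (adjusted p = 0.0446), and the call for Cd200r1 was lost (-1.27, adjusted p = 0.0769). Only Gcg was called without any one of the CD4 or CD8 day 0 libraries or without CD8 syngeneic JL019-1, and the call for Sostdc1 was lost without CD4 syngeneic JL019-1 (adjusted p = 0.0569). With a pseudocount of 0.1 the call for Gcg was lost (adjusted p = 0.216), and with only the 4 groups in the model all 3 calls were lost.

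Sostdc1 in CD8 Treg-treated JL019-1 was 21.1, against 125, 128 and 152 in the other libraries of the group. On the log2 scale, tried after the values were seen, its gap to the nearest library, divided by the range of the group, was 0.900, above Dixon's 95% critical value. On the linear scale it was not above that value. It was the only such library in 20 groups of 4 (5 genes in 4 groups), of which chance flags about 1 in 20. Without it the Treg-treated minus allogeneic difference in CD8 cells was 5.13 on the log2 scale in place of 4.48.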

How the results depend on the processing

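Of the counts of called genes, those between CD8 and CD4 cells at day 0 and in syngeneic recipients and that of Treg day 6 against day 0 moved by less than 1.5 times under every alternative run. A pseudocount of 0.1 gave 1 gene between Treg and CD4 cells at day 0 in place of 2. Quantile normalisation gave 1 gene in CD8 syngeneic against day 0 in place of 2, and 1 in the difference of the syngeneic changes in place of 3. With only the groups compared these became 1 and 0, and CD4 syngeneic against day 0 gave 1 in place of 3. Leaving out 1 library gave 1 to 2 genes in CD8 syngeneic against day 0, 1 to 3 in the difference of the syngeneic changes, and 0 genes in Treg against CD4 cells at day 0 whichever library was left out. For pathway genes in CD4 Treg-treated against allogeneic cells (22 called), leaving out 1 library gave 3 to 33 and the log2 mean covariate gave 2. In CD8 cells 0 were called by limma, and 2 without CD8 allogeneic JL027-1. The cause of these shifts was not tested. The titles number CD4 and CD8 libraries alike, so same-numbered ones may share a recipient. Their deviations correlated at r from -0.11 to 0.43. Of 11 CD4 libraries 7 correlated best with their own number, each among 3 or 4 CD8 libraries. The main model does not use this pairing, and a paired analysis was run as an alternative. With the label prefix or the recipient as a replicate block the same 3 and 2 genes by count were called in CD4 and CD8 syngeneic against day 0. In CD4 cells 22 pathway genes were called. Myo6 between Treg and CD4 at day 0 was gained (limma adjusted p = 0.037 and 0.0246). It was also gained with a minimum mean of 10 (0.0497), quantile normalisation (0.0299), the log2 mean covariate (0.00265) and only the groups compared (0.000294). With the recipient block Id3 between CD8 and CD4 syngeneic cells was gained (adjusted p = 0.0401). Depth is unknown, which limits what can be said of Gcg in CD8 cells and Sostdc1 in CD8 syngeneic cells, where values lie near 0.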

Other observations

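The genes that flank the 5 were looked up by position, after the values of the 5 were known. In CD4 Treg-treated against allogeneic cells 4 of the 10 flanking genes were called, all higher, where 22.2% of all genes were called (1785 of 16741 higher). Calls in this comparison shift with single libraries (3 to 33 called pathway genes when 1 was left out), and these 4 were not tried under the alternatives. Fap, a membrane protease gene 17283 bases from Gcg, rose by 1.88 on the log2 scale (limma adjusted p = 0.0251), whereas Dpp4 on the other side was not called (-0.58, adjusted p = 0.0921). Impg1, 1044 bases from Myo6, rose by 1.38 (adjusted p = 0.0484). Rpl11 beside Id3 rose by 1.05 (adjusted p = 0.0141) and Gtpbp8 beside Cd200r1 by 0.78 (adjusted p = 0.0388). None of the 10 was called in CD8 cells.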
